A study of Mus musculus with 3 samples.

Results

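The genes described here are 32 genes of sterol and fatty acid synthesis, taken by symbol from the 24467 gene symbols that the tables list. They are 7 enzymes of the mevalonate pathway, 11 enzymes that lead from farnesyl diphosphate to cholesterol, 5 regulators of the SREBP transcription factors and 9 enzymes of fatty acid synthesis. They were taken by function and not by a limit on expression, although earlier results of these data were known when they were chosen. RNA was measured in 3 libraries of 5TGM1.BRE cells, a bortezomib-resistant, engraftable mouse myeloma line that goes back to a spontaneous bone marrow tumour of C57Bl/KaLwRij mice. The cells were kept in 10 nM bortezomib, an inhibitor of the proteasome, in medium with 20% fetal bovine serum, and were off the drug for at least 72 h when RNA was taken from 10000000 cells per sample. The titles of all 3 samples name bortezomib resistance, but the cell type label of replicate 1 leaves out the selection in bortezomib that those of replicates 2 and 3 name. All 3 libraries form 1 group of 1 line, and sensitive cells were not analysed here. Levels within the resistant cells are given, and no change with resistance was measured.

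Cholesterol and the isoprenoids are built from acetyl-CoA. The mevalonate pathway makes farnesyl diphosphate, which is either joined to squalene and cyclised to sterols or extended to geranylgeranyl diphosphate, the lipid that anchors Rab proteins to membranes. Fatty acids are built from the same acetyl-CoA by ATP citrate lyase, acetyl-CoA carboxylase and fatty acid synthase, and are then elongated and desaturated. Both routes are induced by SREBP proteins, which SCAP escorts out of the endoplasmic reticulum when sterols are low and which the INSIG proteins retain there when sterols are high. Plasma cells and myeloma cells hold an extensive endoplasmic reticulum, whose membranes consist of these lipids.

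The libraries held 62303493, 45705994 and 59402218 counts in replicates 1, 2 and 3. Pairs of libraries were compared by a chi-square test over genes with at least 20 counts, whose statistic divided by its degrees of freedom was 65.1 between replicates 1 and 3 and 44.4 between replicates 2 and 3, but 3.998 between replicates 1 and 2. Replicate 3 thus stood apart, and counts of genes that differ between libraries are given with and without it below. No label says if the replicates came from separate cultures, so the p-values below reflect only how these samples varied, and that variation may be technical. All 7 plasma cell markers checked, among them Sdc1, Xbp1 and Irf4, were at 1 CPM (counts times 1000000 over the library total) or more in every library. Markers of other cells were near 0. None of 8 adipocyte markers reached 1 CPM in all libraries, their summed level was 0.185 to 0.241 CPM per library, and Adipoq and Retn had 0 counts. None of 5 hepatocyte, 7 myeloid, 6 T and NK cell, 7 stromal and endothelial or 5 erythroid markers did so either, with sums of at most 1.14 CPM per library.

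Nearly the whole module was transcribed. Of the 32 genes, 29 were at 1 CPM or more in all 3 libraries, beside 40.9% of all symbols. The other 3, Hsd17b7, Scd1 and Elovl6, had 2, 9 and 0 counts over all libraries together. The median member was at 9.5 CPM per kilobase of exon, a level corrected for gene length, against 2.46 for the 16120 genes with a count and a known length. The enzymes of fatty acid synthesis had the highest median of the 4 groups at 22.9 CPM per kilobase, followed by the regulators at 9.73, the mevalonate enzymes at 8.73 and the squalene and sterol enzymes at 6.65. All members together held 2143, 2127 and 1931 CPM in replicates 1, 2 and 3, of which the fatty acid enzymes held 978, 976 and 822 CPM and the regulators 408, 404 and 363. The mevalonate and sterol enzymes held 757, 747 and 745 CPM, so the lower sum in replicate 3 lay mainly with the fatty acid enzymes and regulators.

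**Figure D1:**
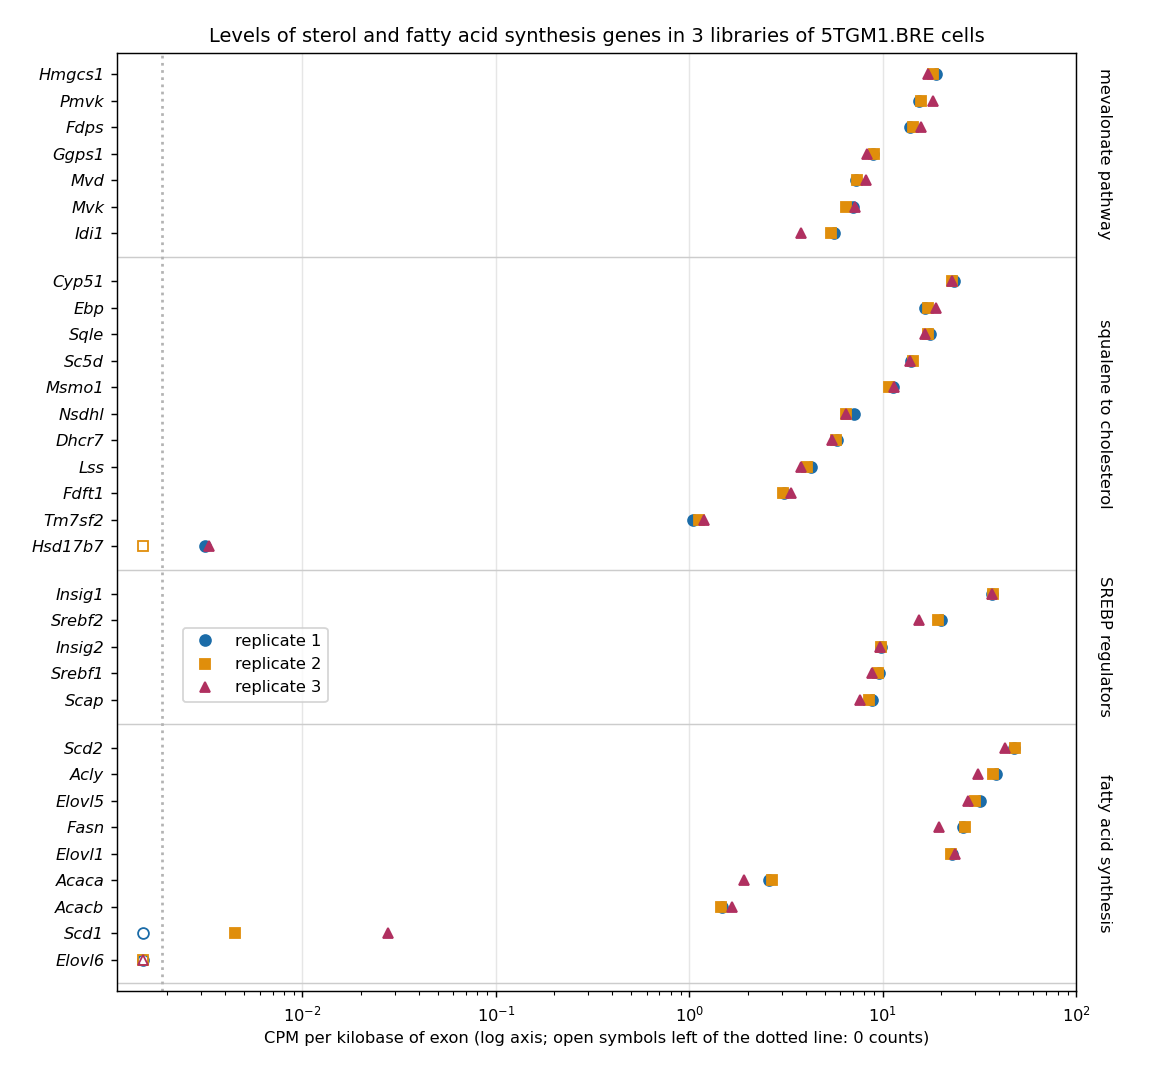
Level of each gene in CPM per kilobase of exon (log axis) in the 3 libraries, grouped by role; open symbols left of the dotted line stand for 0 counts. Of the 32 genes, 29 lie above 1 CPM per kilobase in every library, while Hsd17b7, Scd1 and Elovl6 lie more than 10-fold below all others.

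All 7 enzymes of the mevalonate pathway were expressed. Hmgcs1, which makes the HMG-CoA that enters the pathway, was the highest by length-corrected level, at 18.1 ± 0.816 CPM per kilobase (SD, n = 3). It had 86.2, 83.8 and 78.9 CPM in replicates 1, 2 and 3, a narrow range. Pmvk, the phosphomevalonate kinase, followed at 16.4 ± 1.49 CPM per kilobase, and Fdps, the synthase of farnesyl diphosphate, at 14.7 ± 0.979 (SD, n = 3 for each). Ggps1, which makes geranylgeranyl diphosphate, was at 8.73 ± 0.408, Mvd, the mevalonate diphosphate decarboxylase, at 7.61 ± 0.476 and Mvk, the mevalonate kinase, at 6.88 ± 0.416 CPM per kilobase (SD, n = 3 for each). Fdps had 58.3, 60.4 and 66.3 CPM in replicates 1, 2 and 3, Mvk had 18.8, 17.2 and 19.3, Mvd 13.6, 13.7 and 15.2 and Ggps1 41.8, 42.7 and 39.0. Replicate 3 was the highest library of Fdps, Mvk and Mvd and the lowest of Ggps1. Per kilobase, the libraries of Hmgcs1 and Pmvk overlapped in range, as did those of Pmvk and Fdps. On that scale every library of Mvd lay just above every library of Mvk (lowest 7.30 against highest 7.21). In CPM the order was the reverse, so it depends on the length correction.

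Idi1, the isomerase that provides dimethylallyl diphosphate, was the lowest of the 7 per kilobase and the one that differed most between libraries. Idi1 had 19.5, 18.9 and 13.2 CPM in replicates 1, 2 and 3, so replicate 3 was low and the other 2 were close. Per kilobase its level was 4.91 ± 0.993 CPM (SD, n = 3). In GRCm38 the gene spans 8885501 to 8892451 of chromosome 13, plus strand. Part of its sequence is not unique: 23.6% of the 75-base words in its transcripts also occur in transcripts of other genes, the largest share with a processed pseudogene. For Fdps this share was 23.5%, most of it with Gm43738, an overlapping gene on the same strand. Levels of these genes are thus uncertain where reads with several matches were dropped or split.

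Of the 11 enzymes between farnesyl diphosphate and cholesterol, 10 were expressed in every library. Cyp51, the lanosterol 14-demethylase, was the highest and had 103, 100.2 and 100.2 CPM in replicates 1, 2 and 3. It was at 22.9 ± 0.335 CPM per kilobase, above Ebp, the sterol isomerase, at 17.5 ± 1.26, Sqle, the squalene epoxidase, at 17 ± 0.458 and Sc5d, the sterol 5-desaturase, at 14 ± 0.319 (SD, n = 3 for each). All libraries of Cyp51 lay above all libraries of these 3 genes, while Ebp and Sqle overlapped per kilobase. Msmo1, the methylsterol oxidase, was at 11.2 ± 0.334, Nsdhl, the sterol 4-carboxylate dehydrogenase, at 6.65 ± 0.363, Dhcr7, the last reductase of the route through 7-dehydrocholesterol, at 5.63 ± 0.178 and Lss, the lanosterol synthase, at 4.03 ± 0.248 CPM per kilobase (SD, n = 3 for each). Sqle, which opens the oxygen-requiring part of the route, had 96.9, 94.4 and 91.8 CPM in replicates 1, 2 and 3. Msmo1 had 69.3, 66.3 and 70.3, Nsdhl 20.2, 18.4 and 18.4, Dhcr7 33.5, 33.1 and 31.6 and Lss 46.0, 43.7 and 40.7 CPM in the same order. The libraries of each of these genes were close, and no library was the lowest of all of them.

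Fdft1 and Tm7sf2 were the lowest of the expressed sterol enzymes. Fdft1, the squalene synthase that commits farnesyl diphosphate to sterols, had 13, 12.9 and 14.2 CPM in replicates 1, 2 and 3, or 3.16 ± 0.165 CPM per kilobase (SD, n = 3). Of its 75-base words, 21.8% occur in other genes, chiefly Ctsb, which overlaps it on the opposite strand, so its level is uncertain. Tm7sf2, a sterol 14-reductase, had 4.57, 4.92 and 5.22 CPM, or 1.11 ± 0.0732 CPM per kilobase (SD, n = 3). Lbr, the lamin B receptor, which has the same reductase activity, was at 72.9 ± 6.0 CPM per kilobase (SD, n = 3). The log2 ratio of Tm7sf2 to Lbr per kilobase was -6.03 ± 0.21 (SD, n = 3), which puts Tm7sf2 65.3-fold below Lbr.

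Hsd17b7 was not detected above the counting floor. Its product is the 3-ketosteroid reductase that completes the removal of the sterol methyl groups at carbon 4, between Nsdhl and Ebp in the route. Hsd17b7 had 1, 0 and 1 counts in replicates 1, 2 and 3. Over the 167411705 counts of all libraries this is 0.0119 CPM, with an exact 95% Poisson interval of 0.00145 to 0.0432 CPM that covers counting error only. Its neighbours in the route were at 19.0 ± 1.04 CPM (Nsdhl) and 40.4 ± 2.91 CPM (Ebp) (SD, n = 3 for each). None of the 75-base words of Hsd17b7 occurs in another gene's transcripts and no other gene overlaps its exons. As background, NS0, a mouse myeloma line used in antibody production, depends on added cholesterol and has been described as deficient in this transcript. Sterol synthesis itself was not measured in the present cells. In GRCm38 the gene spans 169949535 to 169969241 of chromosome 1, minus strand.

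The windows upstream of the starts of 27 of the 32 genes were in the RefSeq promoter table (GRCm38.p6), and 5 are shown, each as the 250 bases before the start, 5′ to 3′ on the gene's strand. Hsd17b7 and Elovl6 are shown because their transcripts were at or near 0, and Insig1, Cyp51 and Hmgcs1 because they led their groups per kilobase. Scd1, also near 0, and Scd2, which led the fatty acid enzymes per kilobase, had no window. Neither had Fdps, Fdft1 and Sqle. Capitals mark CCAAT, the box bound by NF-Y, a frequent partner of SREBP (ATTGG where it lies on the other strand), GGGCGG, the GC box bound by Sp1 (CCGCCC on the other strand), and TCACNCCAC, a form of the sterol element bound by SREBP. The windows are chr1:169969206-169969455 on the minus strand for Hsd17b7, chr3:129532136-129532385 on the plus strand for Elovl6, chr5:28071162-28071411 on the plus strand for Insig1, chr5:4104698-4104947 on the minus strand for Cyp51 and chr13:119690101-119690350 on the plus strand for Hmgcs1.
Hsd17b7: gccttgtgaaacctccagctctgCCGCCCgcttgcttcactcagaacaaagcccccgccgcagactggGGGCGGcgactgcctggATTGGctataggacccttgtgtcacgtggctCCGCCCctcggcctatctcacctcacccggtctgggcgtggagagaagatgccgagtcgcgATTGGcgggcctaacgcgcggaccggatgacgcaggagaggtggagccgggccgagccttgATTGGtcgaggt
Elovl6: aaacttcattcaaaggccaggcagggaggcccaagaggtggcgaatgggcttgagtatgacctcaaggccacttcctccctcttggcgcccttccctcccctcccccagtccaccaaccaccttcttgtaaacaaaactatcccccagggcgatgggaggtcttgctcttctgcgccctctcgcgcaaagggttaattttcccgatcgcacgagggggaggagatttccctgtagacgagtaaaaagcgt
Insig1: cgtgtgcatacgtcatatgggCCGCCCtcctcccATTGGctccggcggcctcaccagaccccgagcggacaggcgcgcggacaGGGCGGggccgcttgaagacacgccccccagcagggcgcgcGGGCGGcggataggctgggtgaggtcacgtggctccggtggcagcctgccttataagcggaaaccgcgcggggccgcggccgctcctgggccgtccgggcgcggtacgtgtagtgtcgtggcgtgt
Cyp51: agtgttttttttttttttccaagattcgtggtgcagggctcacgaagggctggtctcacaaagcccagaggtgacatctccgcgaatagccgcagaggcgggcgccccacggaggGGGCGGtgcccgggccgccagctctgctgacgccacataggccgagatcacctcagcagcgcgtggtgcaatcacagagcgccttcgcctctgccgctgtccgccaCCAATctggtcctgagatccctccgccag
Hmgcs1: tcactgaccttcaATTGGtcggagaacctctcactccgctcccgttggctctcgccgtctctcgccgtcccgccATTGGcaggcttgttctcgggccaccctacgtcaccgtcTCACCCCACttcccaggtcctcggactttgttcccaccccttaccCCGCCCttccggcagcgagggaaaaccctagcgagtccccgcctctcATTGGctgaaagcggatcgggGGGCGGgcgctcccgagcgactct

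Both strands were searched for each motif. CCAAT occurred in at least 1 window of 23 of the 27 genes (85.2%), against 37.5% of all 27025 genes with a window and 41.9% of those at 1 CPM or more in all libraries. The window of Hsd17b7 held 3 such boxes, as many as that of Hmgcs1, while Insig1 and Cyp51 held 1 each and Elovl6 held none. The GC box GGGCGG occurred in 74.1% of the 27 genes, against 65.6% of the expressed genes. The palindrome CACGTG, an E-box, occurred in 22.2%, against 10.5%, and both Hsd17b7 and Insig1 held it. Of the 27 genes with a window, only Hmgcs1 held TCACNCCAC, or 3.7%, against 1.22% both of all genes with a window and of the expressed genes. The 5 members without a window were not searched. Such a match is a string of letters and not a measured binding site, and its absence from these windows says nothing of more distant ones. CpG dinucleotides numbered 23 in the Hsd17b7 window and 11 in that of Elovl6, against 34 in Insig1, 20 in Cyp51 and 23 in Hmgcs1. The median of all windows, those of genes not expressed here included, was 6, and expressed genes alone were not compared.

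The 5 regulators were all expressed, and the retention factor Insig1 exceeded the rest per kilobase, while Srebf2 had the highest mean CPM. Insig1, itself a target of SREBP, had 113.1, 115 and 113.2 CPM in replicates 1, 2 and 3, which did not differ beyond counting noise by the chi-square test described below (adjusted p = 0.424). Per kilobase it was at 36.8 ± 0.350 CPM, second of all 32 genes behind Scd2, with a range that overlapped that of Acly. Its paralog Insig2, at 9.73 ± 0.0456 CPM per kilobase, had the narrowest spread relative to its mean of the 29 tested members (SD, n = 3 for each). Insig2 had 33.9, 33.9 and 33.6 CPM in replicates 1, 2 and 3. The log2 ratio of Insig1 to Insig2 per kilobase was 1.92 ± 0.011 (SD, n = 3), a 3.78-fold excess found in 3 of 3 libraries.

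Srebf2 encodes the SREBP that mainly drives sterol genes. Srebf1 encodes SREBP forms linked more to fatty acid genes, which counts per gene do not tell apart. Srebf2 had 142.6, 138 and 110.2 CPM in replicates 1, 2 and 3, with replicate 3 low, and was at 18.1 ± 2.44 CPM per kilobase (SD, n = 3). Srebf1 had 53.7, 53.5 and 49.6 CPM, or 9.27 ± 0.410 CPM per kilobase (SD, n = 3). Every library of Srebf2 thus lay above every library of Srebf1 on both scales, and the log2 ratio per kilobase was 0.96 ± 0.14 (SD, n = 3). Scap, the escort of SREBP, had 65.2, 63.3 and 56.5 CPM in replicates 1, 2 and 3 and was at 8.28 ± 0.614 CPM per kilobase (SD, n = 3). On the latter scale its range overlapped those of Ggps1 and Mvd, its neighbours in the order of levels. The log2 ratio of Scap to Insig1 was -2.15 ± 0.11 (SD, n = 3), so the escort was 4.45-fold below the retention factor, or 1.85-fold without the length correction.

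Fatty acid synthesis held both the most abundant members and 2 of the 3 that were near 0. Scd2, a stearoyl-CoA desaturase that introduces the double bond of oleic acid, led all 32 genes per kilobase, while Fasn had the highest mean CPM. Scd2 had 261.1, 263 and 235 CPM in replicates 1, 2 and 3, or 46.3 ± 2.88 CPM per kilobase (SD, n = 3), at percentile 91.9 of the genes with a count. Its paralog Scd1, the main desaturase of liver and fat, had 0, 1 and 8 counts. The pooled level of Scd1 was 0.0538 CPM, with an exact 95% Poisson interval of 0.0246 to 0.102 CPM, and 8 of its 9 counts came from replicate 3. From the counts of all libraries, Scd2 exceeded Scd1 4199-fold per kilobase, with an exact 95% binomial interval of 2212 to 9184 that covers counting error only. Shared 75-base words made up 1.78% of Scd2 and 3.15% of Scd1. Both genes are on chromosome 19 (GRCm38), where Scd2 spans 44293674 to 44306864, plus strand, and Scd1 spans 44394455 to 44407879, minus strand.

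Among the elongases, Elovl5 and Elovl1 were abundant and Elovl6 was listed at 0 in every library. Elovl5, which extends polyunsaturated fatty acids, had 111 CPM in replicate 1, 105 in replicate 2 and 96.8 in replicate 3, or 29.7 ± 2.09 CPM per kilobase (SD, n = 3). Elovl1, which makes very long saturated chains, had 62.0, 61.0 and 64.6 CPM in replicates 1, 2 and 3 and was at 22.9 ± 0.679 CPM per kilobase (SD, n = 3). Elovl6, which extends palmitic acid to stearic acid, had 0 counts in 3 of 3 libraries, which allows up to 0.0179 CPM over all counts. Against that floor of 3 counts over the group, Elovl1 was at least 8248-fold higher and Elovl5 at least 10658-fold higher per kilobase. In GRCm38 Elovl6 spans 129532355 to 129638495 of chromosome 3, plus strand, and 2.05% of its 75-base words are shared with other genes.

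The enzymes that make and use malonyl-CoA were unequal in level. Acly, the ATP citrate lyase, was at 35.4 ± 3.92 CPM per kilobase and Fasn, the fatty acid synthase, at 24.0 ± 3.91, whereas Acaca, the cytosolic acetyl-CoA carboxylase, was at 2.39 ± 0.414 (SD, n = 3 for each). Per kilobase Fasn exceeded Acaca 10.1-fold (log2 3.33 ± 0.018, SD, n = 3). Without the length correction the excess was 6.46-fold, and over the longest transcript 6.11-fold. The union exon length of Acaca, at 17074 bases, is the longest of all members, and 26.8% of its 75-base words occur in other genes. Acacb, the carboxylase at the mitochondrial outer membrane, had 14.2, 14.1 and 16.1 CPM in replicates 1, 2 and 3 and was at 1.53 ± 0.117 CPM per kilobase (SD, n = 3). The log2 ratio of Acaca to Acacb was 0.80, 0.88 and 0.20 in replicates 1, 2 and 3, so the excess was smaller in replicate 3. Its mean fold was 1.54 per kilobase, 2.74 without the length correction and 2.53 over the longest transcript.

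**Figure D2:**
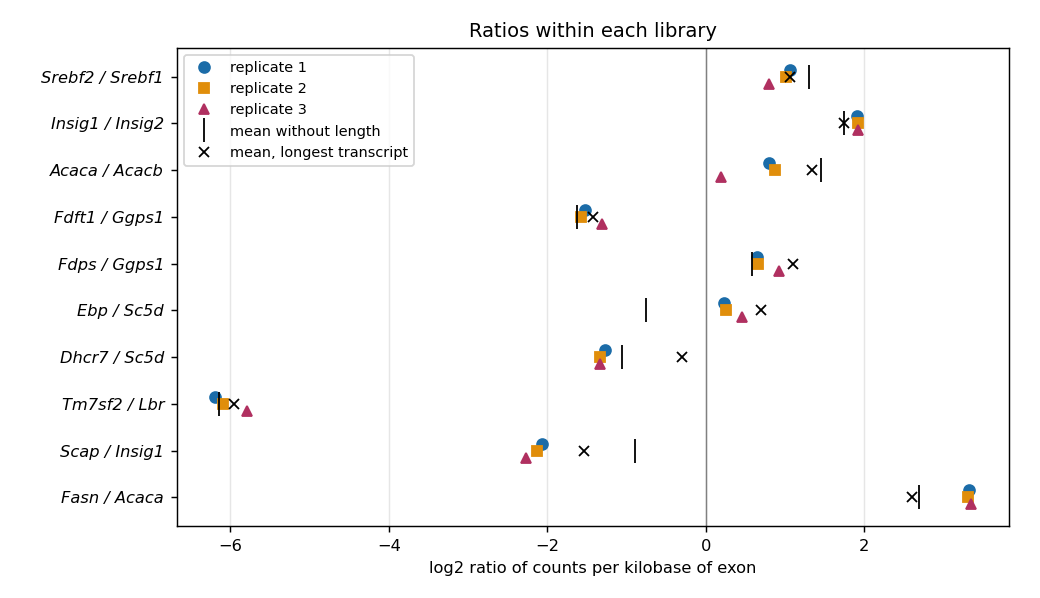
Log2 ratio of counts per kilobase of exon within each library for 10 pairs of genes, with ticks for the mean of plain counts and crosses for the mean over the longest transcript. The 3 libraries lie on the same side of 0 for every pair, and the ratio of Ebp to Sc5d turns negative without length.

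At the branch point after farnesyl diphosphate, Fdft1 was 2.76-fold below Ggps1 per kilobase (log2 -1.47 ± 0.14, SD, n = 3). Fdps exceeded Ggps1 1.68-fold (log2 0.75 ± 0.16, SD, n = 3). Late in the route, Dhcr7 was 2.49-fold below Sc5d (log2 -1.32 ± 0.035, SD, n = 3), or 1.23-fold below over the longest transcript of each. Ebp exceeded Sc5d per kilobase (log2 0.32 ± 0.13, SD, n = 3) but was 1.69-fold below Sc5d without the length correction, so its direction depends on the length. The geometric mean of the 18 mevalonate and sterol genes exceeded that of the 9 fatty acid genes, with a log2 ratio of 1.36 ± 0.20 (SD, n = 3) and 0.5 added to each count, or 0.71 without the length correction. Without Hsd17b7, Scd1 and Elovl6 the same ratio was -0.71 ± 0.099 (SD, n = 3), so its direction rests on the members near 0. An exact permutation test by sign flips (two-sided) gave p = 0.25 for every one of the 11 ratios, also after Benjamini-Hochberg adjustment, and 3 libraries cannot give a smaller p.

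The libraries were then compared with each other for each gene by a chi-square test of homogeneity of the counts, which asks whether they differ by more than independent counts would. It compares libraries and not conditions. Of the 29 members with enough counts to be tested, 18 had an adjusted p under 0.05 (Benjamini-Hochberg over 11308 genes), beside 62.9% of all tested genes, so the share of the members was near that of the whole table. Without replicate 3, 1 member passed, Fasn (adjusted p = 0.0341), beside 8.6% of all genes tested. Over all 29, replicate 3 was the lowest library of 14 and the highest of 12, beside 43.8% and 45.3% of all tested genes, and in the 18 that passed it was the lowest of 10 and the highest of 8. The spread was small in size. On levels scaled by TMM, the highest library exceeded the lowest by a median of 1.12-fold for the members and 1.16-fold for all tested genes, and in 4 members the excess was over 25%, beside 28.2% of all tested genes.

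Those 4 genes were Idi1, Acaca, Fasn and Srebf2, each lowest in replicate 3. Fasn had 283 CPM in replicate 1, 292 in replicate 2 and 214 in replicate 3, a ratio of highest to lowest of 1.34 (chi-square test, adjusted p = 6.88e-147). Acaca had 43.8, 45.8 and 32.7 CPM in replicates 1, 2 and 3, a ratio of 1.37 (adjusted p = 4.54e-26). Idi1 had the widest ratio, 1.45 (adjusted p = 5.74e-16), and Srebf2 a ratio of 1.27 (adjusted p = 6.21e-50). Acly followed with 203, 195 and 163 CPM and a ratio of 1.21 (adjusted p = 8.74e-47). In these 5 genes replicates 1 and 2 were close and replicate 3 lay below both. Pmvk moved the other way, with 26.3, 27.0 and 31.0 CPM (ratio 1.21, adjusted p = 7.48e-08), as did Ebp, with 38.1, 39.5 and 43.7 CPM (ratio 1.17, adjusted p = 1.08e-07). At the other end, Cyp51, Sqle, Sc5d, Dhcr7, Insig1 and Insig2 differed by at most 1.04-fold over the 3 libraries.

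**Figure D3:**
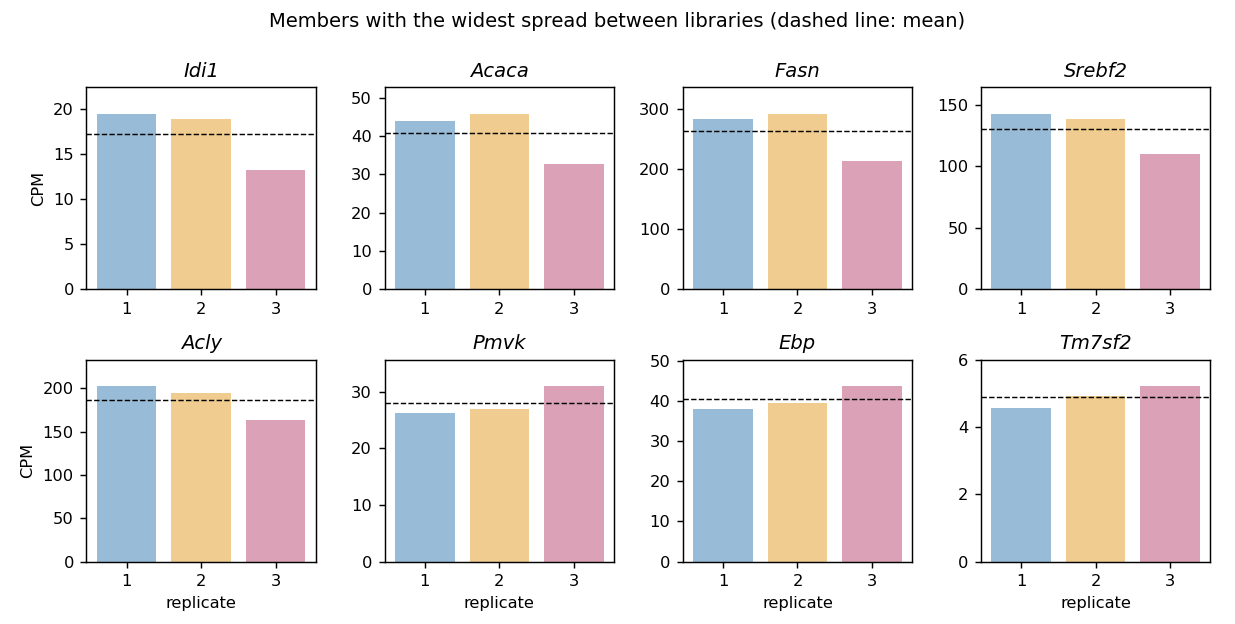
CPM in replicates 1, 2 and 3 of the 8 members with the widest ratio of highest to lowest library, with the mean as a dashed line. Replicate 3 is the lowest bar for Idi1, Acaca, Fasn, Srebf2 and Acly and the highest for Pmvk, Ebp and Tm7sf2.

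Transcript length moved with replicate 3. Members that passed the test and were lowest in replicate 3 had a median exon length of 6324 bases, and those highest there 2701 bases. The same trend ran through all tested genes. With it removed, 12 members passed, beside 52.1% of all tested genes, and 11 of these 12 were among the 18 that passed before. Hmgcs1, Mvk, Pmvk, Mvd, Ebp, Scap and Elovl1 no longer passed, and Nsdhl did. In replicate 3 the level of Fasn deviated from the mean of the 3 libraries by -0.26 on the log2 scale as measured and by -0.13 with the trend removed, and that of Acaca by -0.28 and -0.10. Idi1, at -0.34 and -0.36, did not follow the trend. Acacb, a long gene that was highest in replicate 3, deviated by 0.15 as measured and by 0.27 with the trend removed. Idi1 and Acacb were then the 2 members over the 25% limit, with ratios of 1.48 and 1.32, beside 18.6% of all tested genes.

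**Figure D4:**
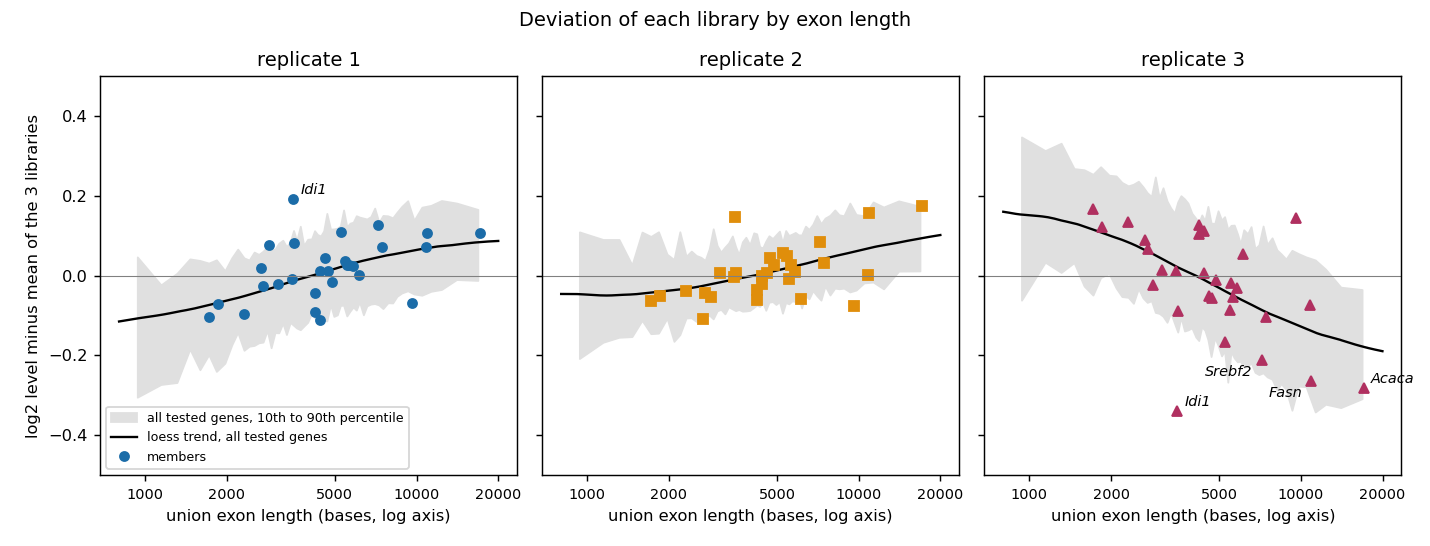
Log2 level of each tested gene in each library minus its mean over the 3 libraries, against union exon length in bases (log axis); points are the 29 tested members, the grey band spans the 10th to 90th percentile of all tested genes and the line is their loess trend. In replicate 3 the trend falls with length, Fasn and Acaca lie below it and Idi1 lies at -0.34, outside the grey band.

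Genes that act around the module were read from lists of related functions. Their counts of genes that differed between libraries by the chi-square test stand beside 62.9% of all tested genes, and beside 8.6% without replicate 3. Of 10 genes that process SREBP or control its retention, all were at 1 CPM or more in every library. Among them were Erlin2, a membrane protein that helps retain SREBP, at 21 ± 1.72 CPM per kilobase and Fbxw7, a ubiquitin ligase subunit that targets nuclear SREBP, at 20.9 ± 0.778 (SD, n = 3 for each). Of the 10, 9 differed between libraries, and 1 without replicate 3. Of 11 further enzymes and electron donors listed with sterol synthesis, 9 reached 1 CPM and 5 of 10 tested differed between libraries, against 1 without replicate 3. The highest on this list were Lbr, Cyb5b, a cytochrome b5, at 60.5 ± 5.53 and Acat1 at 53.6 ± 1.92 CPM per kilobase (SD, n = 3 for each). Acat1 encodes the mitochondrial acetoacetyl-CoA thiolase, so its level does not describe the cytosolic start of the mevalonate pathway. All 15 genes that use isoprenoids for protein prenylation, dolichol and coenzyme Q were expressed, and 12 differed between libraries, against 1 without replicate 3. Rabggtb and Rabggta, the subunits of the enzyme that prenylates Rab proteins, were at 78.7 ± 6.77 and 44.6 ± 3.54 CPM per kilobase, and Nus1, a subunit of the dolichol synthase, was at 52.8 ± 1.16 (SD, n = 3 for each).

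Genes of lipid uptake, storage and traffic were expressed in 9 of 12 cases, and 8 of 9 tested differed between libraries, against 1, Lipa, without replicate 3. Npc2 and Lipa, a lysosomal cholesterol carrier and the lysosomal acid lipase, were at 108.3 ± 8.16 and 50.7 ± 3.49 CPM per kilobase, and Osbp, a sterol transfer protein, at 19.8 ± 1.36 (SD, n = 3 for each), whereas Stard4, another sterol carrier, had 0 counts. Of 10 genes of the liver X receptor response, sterol efflux and oxysterol synthesis, 6 were expressed and 4 of 7 tested differed between libraries, against 1, Lpcat3, without replicate 3. Abcg1, a sterol efflux pump, was at 23.1 ± 0.252 CPM per kilobase and differed by no more than counting noise would give (chi-square test, adjusted p = 0.918). Nr1h2, which encodes liver X receptor beta, was at 19.9 ± 0.543 and Lpcat3, a phospholipid acyltransferase, at 14.4 ± 0.630 CPM per kilobase (SD, n = 3 for each). Ch25h and Cyp46a1, enzymes that make oxysterols, had 0 counts.

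Of 20 other genes of fatty acid elongation, desaturation and supply, 9 were expressed and 7 of 10 tested differed between libraries, against 0 by the same chi-square test without replicate 3 (1 at an unadjusted p under 0.05). Hsd17b12 and Tecr, which carry out reductive steps of every elongation cycle, were at 122 ± 3.30 and 49.2 ± 2.61 CPM per kilobase, and Me1, the malic enzyme that supplies NADPH, at 34.4 ± 1.18 (SD, n = 3 for each). Elovl2, Hacd4 and Fads3 had 0 counts. Of 17 genes of fatty acid activation, oxidation and storage, 11 were expressed and 6 of 12 tested differed between libraries, against 1, Acsl5, without replicate 3. Acsl5, an acyl-CoA synthetase, was at 59.5 ± 3.21 CPM per kilobase, Acadvl at 40.6 ± 1.09 and Hadha at 17.3 ± 1.56, both enzymes of mitochondrial oxidation (SD, n = 3 for each). Acsl1 and Acsl3, paralogs of Acsl5, had 0 counts in all 3 libraries.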

How the data were processed

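Polyadenylated RNA of 3 samples of 1 group was sequenced. Per the submitters' processing notes, bcl2fastq, cutadapt 4.2 and STAR were used with the mouse genome mm10. The deposited values are raw counts per gene symbol. Counting program, annotation and strand setting: not given in the sources used here. CPM is the count divided by the library total, times 1000000, computed here from the deposited counts. Exon lengths and positions came from GENCODE M21 (GRCm38), to which 23688 symbols matched directly, 466 by an older symbol and 313 not at all; Spring1 was listed under its older symbol. The homogeneity test and the ratios of highest to lowest library used library sizes scaled by TMM (edgeR 4.0.16, R 4.3.3) and the 11308 genes that filterByExpr kept. It was tested on simulated data. The length trend was fitted by loess (span 0.3). Python 3.11.15 was used for the rest. A floor of 3 counts was 0.0482, 0.0656 and 0.0505 CPM per library. The members, lists, pairs and tests were chosen with earlier results of these data known. Named are all members, the 3 highest genes per kilobase of each related list with up to 3 at 0 counts, apart from results not reported here, and the genes of the ratios. Pairs with Elovl6 or Scd1 as denominator were read from pooled counts, with no sign-flip test, since libraries held 0 counts. Alternatives were other scalings, no filter, removal of the length trend, other limits, no or other lengths, and leaving out each replicate.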

Additional observations from a re-analysis of the deposited data

How the results depend on the processing

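The count of members that differed between libraries was 18, beside 62.9% of all tested genes. With RLE scaling it was 18 (beside 62.8%), with library totals 17 (62.2%) and with no filter on low counts 19 (42.9%). With the length trend removed it was 12 (52.1%), so all these counts stayed within 1.5 times the first. It was 17 without replicate 1 (beside 55.8% of the genes then tested), 17 without replicate 2 (61.8%) and 1 without replicate 3 (8.6%). Members whose highest library exceeded the lowest by over 25% numbered 4, beside 28.2% of all tested genes. They numbered 6 with no filter on low counts (beside 49.6% of the genes then tested) and 2 with the length trend removed (18.6%). At a limit of 1.5-fold there were 0 (beside 7.55% of all tested genes). Without replicate 1, 2 or 3 there were 3, 4 and 0, beside 17.6%, 22.6% and 6.23%. The log2 ratio of Ebp to Sc5d was 0.32 per kilobase and -0.76 without length. That of sterol to fatty acid enzymes was 1.36, and -0.71 without the 3 members near 0, an alternative chosen after seeing the data. Members at 1 CPM or more in every library numbered 29, beside 40.9% of all symbols. Their number was 28 at a limit of 5 CPM (beside 36%) and 29 at 0.5 CPM (43%). With any 1 library left out it was 29, beside 41.1% to 41.2%. No paired analysis was possible because there is 1 group. With 3 libraries no ratio could reach p below 0.25. Hsd17b7, at 2 counts in all, has only a wide interval, and Elovl6, at 0 counts, only an upper bound.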

Other observations

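The genes beside the 3 members near 0 were looked up after those members' values were seen. Around Hsd17b7 on chromosome 1, Nuf2 was at 107 ± 5.92 CPM and Uap1 at 56.7 ± 0.427 CPM (SD, n = 3 for each), while the closer Ddr2 was at 0.180 ± 0.0557 CPM (SD, n = 3) and Ccdc190 and Rgs4 had 0 counts. Around Elovl6 on chromosome 3, Gar1 was at 110.7 ± 7.96 CPM and Ap1ar at 81.6 ± 3.0 CPM (SD, n = 3 for each), while Egf, directly beside Elovl6, was at 2.45 ± 0.218 CPM (SD, n = 3) and Enpep had 0, 0 and 1 counts in replicates 1, 2 and 3. Beside Scd1 on chromosome 19, Scd2 was at 253 ± 15.7 CPM (SD, n = 3), whereas the paralogs Scd3 and Scd4 had 3, 2 and 2 counts and 0, 0 and 1 counts in replicates 1, 2 and 3.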
